A study of Rattus norvegicus with 2 samples.

Results

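The cells described here hold a high level of the lubricant gene Prg4 and at most 1 UMI of Clic5 and its 2 companion genes. They were chosen by counts of UMIs (unique molecular identifiers, each marking 1 captured RNA molecule). CPM is a gene's UMIs per 1000000 UMIs of a cell or of a sum of cells. A cell entered with a Prg4 level of at least 5000 CPM and fewer than 2 UMIs of Clic5, Rab3b and Gstt3 together. It also had Col2a1 below 1000 CPM, Lyz2 below 10000 CPM, fewer than 5 UMIs of Aqp3, Fam180a and Fam25a, and fewer than 5 UMIs of the division genes Top2a, Cdk1, Cenpf and Ube2c. In all, 2148 of 13758 kept cells met the rule, and they are called Clic5-negative Prg4-high cells below.

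The cells come from a single-cell RNA sequencing study of cartilage from Lewis rats. One library is the control, labelled as having no treatment and called sham in the series' design text. The other is labelled CIA, for collagen-induced arthritis: its rats received collagen of type II with complete Freund's adjuvant and tissue was taken at day 14. The sources used here give no age, sex, joint or number of animals per library. Each group is 1 library, so no difference below has a test or a replicate check. Intervals are exact 95% intervals that cover counting error only, and each comparison is of these libraries, not of the conditions.

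Prg4 encodes lubricin, a mucin-like glycoprotein that coats cartilage and the synovial lining and lowers friction between them. The synovial lining is a thin layer of fibroblasts and macrophages that faces the joint space, and superficial-zone chondrocytes share its Prg4 expression. In inflamed joints, lining fibroblasts are known for secreting matrix-degrading enzymes such as Mmp3 (stromelysin 1) and their inhibitors such as Timp1. Sublining fibroblasts lie beneath them around vessels, and the same tissue fragment can carry both.

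In the control library 588 of 5349 cells met the rule (10.99%, interval 10.2 to 11.9%), and in the CIA library 1560 of 8409 (18.6%, 17.7 to 19.4%). The share stayed higher in the CIA library when the rule was applied to cells thinned to 4000 UMIs each, with 680 cells (12.7%) and 1773 cells (21.1%). The median control cell had 12981.5 UMIs, in a range of 5106 to 60594, from 2921 genes. The median CIA cell had 12064.5 UMIs, in a range of 4371 to 52486, from 2870.5 genes. The summed cells held 8468537 and 20638640 UMIs. Mitochondrial UMIs made up a median of 6.35% and 5.33%. The 2 libraries shared 52 cell barcodes, 6 of them among the control and 8 among the CIA cells of the rule, and leaving them out gave 49 higher and 100 lower genes in the CIA-to-control comparison below.

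Cells that met every other bound but held at least 2 UMIs of Clic5, Rab3b and Gstt3 are the nearest comparison and are called Clic5-positive. They numbered 136 in the control and 133 in the CIA library. Clic5-negative cells were therefore 81.2% (78.2 to 84.0%) and 92.1% (90.8 to 93.4%) of the Prg4-high cells. The cut is in UMIs, so depth bears on it, and the median Clic5-positive cell held 10780.5 UMIs in the control and 16007 in the CIA library. Clic5-positive cells had a median of 14 such UMIs in the control and 5 in the CIA library. Among the Clic5-negative cells, 50 control and 115 CIA cells held 1 of these UMIs. On thinned cells the Clic5-positive numbers were 111 and 64.

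The Prg4 limit cuts through a continuous range of levels. Between 5000 and 6000 CPM, just inside the rule, lay 73 control and 129 CIA cells, and between 4000 and 5000 CPM, just outside, lay 104 and 178 cells that met the other bounds. The median Mmp3 level was 9290 and 12636 CPM (control, CIA) just inside the limit and 9974 and 10646 CPM just outside. Median Timp1 levels were 1908 and 2649 CPM inside and 1710 and 2258 CPM outside, and the median Htra4 level was 0 on both sides.

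The markers given for these cells were Prg4, Mmp3, Timp1 and Htra4. Prg4, which the rule used, is described only: its summed level was 15362 (control) and 21559 CPM (CIA). The median cell had 10942 CPM of Prg4 in the control library (quartiles 7231 and 19699) and 14129 CPM in the CIA library (8372 and 26958). Clic5-positive cells lay higher, at medians of 37928 and 31638 CPM, and all other cells far lower, at 344 and 689 CPM.

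Mmp3, a protease that cleaves proteoglycans and activates other metalloproteinases, was at 15115 (control) and 18251 CPM (CIA) (1.21-fold higher, interval 1.2 to 1.22). The per-cell medians were 11292 and 14794 CPM, against 474 and 581 CPM in all other cells, which are of many types. The cells most like them were closer in part. Cells just below the Prg4 limit had medians of 9974 and 10646 CPM, and Clic5-positive cells of 374 and 12424 CPM. Timp1, a secreted inhibitor of metalloproteinases, was at 3067 and 4688 CPM (1.53-fold, 1.51 to 1.55). Htra4, a secreted serine protease, was at 391 and 706 CPM (1.80-fold, 1.74 to 1.87). All 3 were higher in the CIA library, and none was past the size rule used below, which asks for a 2-fold ratio or more with all of its interval past 1.5-fold. Htra4 was the most uneven of the 3, with a lower quartile of 0 CPM and an upper quartile of 360 (control) and 714 CPM (CIA).

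Endothelial cells, which are not known for making Prg4, Mmp3 or Htra4, were used as a guide to the level that free RNA can leave in a droplet. Some genes, such as Timp1, can be made by endothelial cells, so for these the guide may lie too high. In 692 control and 543 CIA endothelial cells (median 11579.5 and 8909 UMIs), Mmp3 was at 985 and 848 CPM, Timp1 at 396 and 385 CPM, and Htra4 at 18.7 and 17.2 CPM. On cells thinned to 4000 UMIs, 42.9% of the control and 54.4% of the CIA Clic5-negative cells had a UMI of Htra4, against 7.95% and 6.81% of endothelial cells. Unthinned levels of the 3 markers were thus well above those of endothelial cells in both libraries.

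**Figure D1:**
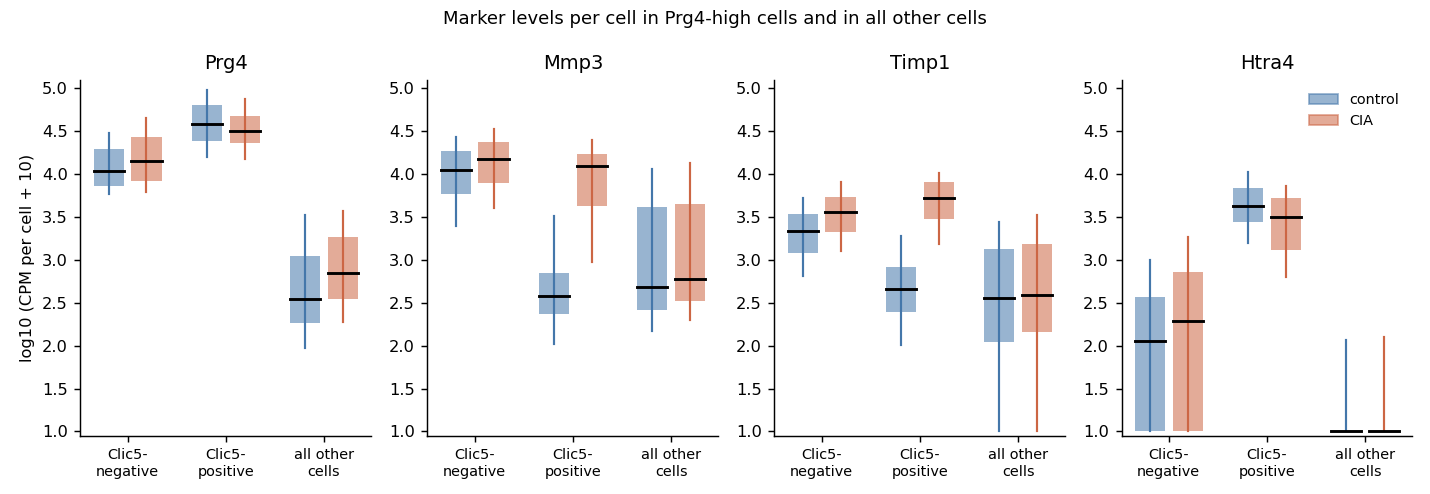
Levels per cell of the markers Prg4, Mmp3, Timp1 and Htra4 (vertical axis, log10 of CPM plus 10) in Clic5-negative Prg4-high cells, Clic5-positive Prg4-high cells and all other cells of the control (blue) and CIA (orange) library. Boxes span the quartiles, lines the 10th to 90th percentile over cells and black bars mark medians; Mmp3 and Timp1 in control Clic5-positive cells sit far below the other Prg4-high groups.

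The lining label was checked on a wider list of 10 synovial lining genes. Of the 9 other than Prg4, which the rule fixes, 4 reached 100 CPM in the control and 5 in the CIA library. Their summed level was 1166 and 1578 CPM, against 4009 and 4138 CPM in Clic5-positive cells. By the size rule defined above, 1 of these 9 was higher than in Clic5-positive cells and 5 were lower in the control library. In the CIA library 0 and 4 were. Pdpn had per-cell medians of 401 and 468 CPM, and Vcam1 of 53.5 and 87.3 CPM. Tspan15, another lining marker, had 0 UMIs (control) and 1 UMI (CIA). Cd55, a complement regulator used as a lining marker, was at 41.2 and 88.3 CPM, below its 61.8 CPM in control endothelial cells but above their 48.3 CPM in the CIA library. Hbegf, a ligand of the epidermal growth factor receptor, was at 137 and 322 CPM. In Clic5-positive cells Cd55 was at 990 and 589 CPM and Hbegf at 1679 and 1521 CPM. A list of 9 sublining fibroblast genes summed to 1807 and 1942 CPM in the Clic5-negative and to 798 and 809 CPM in the Clic5-positive cells. Of these 9 sublining genes, 5 were past the size rule as higher than in Clic5-positive cells and 2 as lower in the control library. In the CIA library 3 and 0 were. Of all measured genes, 5.72% were higher and 7.82% lower in the control library, and 2.73% and 2.27% in the CIA library. Sectm1b, the most abundant, was at 1042 and 1298 CPM here and at 90.8 and 382 CPM in Clic5-positive cells. This gene alone held most of the difference between the summed levels in both libraries. Pi16 went the other way, at 10.7 and 12.4 CPM here and 55.4 and 17.1 CPM there. The cells are therefore called by their rule and not by the name of a layer.

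Their most abundant RNAs were those of fibroblast matrix. Col3a1 (type III collagen) was at 27515 (control) and 28007 CPM (CIA), Col1a1 (type I collagen) at 25255 and 21494 CPM, and Sparc, a collagen-binding protein, at 23411 and 23553 CPM. Lum and Dcn, small leucine-rich proteoglycans, Fn1 (fibronectin), Fth1 (ferritin heavy chain) and Tmsb10 (an actin-binding peptide) and Mmp3 also stood among the 10 highest in both libraries, counted without mitochondrial, ribosomal-protein and rule genes. Bgn, another small proteoglycan, completed the 10 in the control and Lbp, the lipopolysaccharide-binding protein, in the CIA library.

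Markers of other cell types were low in them. A list of 12 macrophage genes took a median of 0.097% of a control cell's UMIs and 0.165% of a CIA cell's, with 1 and 3 cells at or above 1%. Lyz2 (lysozyme), a member of this list that is capped by the rule, was at 720 and 1285 CPM, below its 807 and 1486 CPM in endothelial cells. It made up most of the list's summed 1046 and 1740 CPM, so the list's low share is partly set by the rule. The 10 chondrocyte genes took a median of 0.034% and 0.005%, and the endothelial list had a median of 0 in both libraries. The labels name cartilage, dissociated with TrypLE, and the series title names articular chondrocytes. Col2a1, the defining collagen of cartilage and capped by the rule, was at 128 and 6.44 CPM, below the 315 and 9.48 CPM of endothelial cells. It is 1 of the 10 chondrocyte genes, which together summed to 542 and 185 CPM. Their low share is thus also partly set by the rule.

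To show the sequence upstream of the protease Mmp3 and its inhibitor Timp1, the 250 bases before each start are given from RefSeq, build GRCr8, which is not the build of the counts. Mmp3 lies at chr8:12925031-12925280 on the plus strand and Timp1 at chrX:3771123-3771372 on the minus strand. Capitals mark matches, on either strand, to an AP-1 motif (TGANTCA, bound by Fos and Jun proteins) and a TATA motif (TATAAA).
Mmp3: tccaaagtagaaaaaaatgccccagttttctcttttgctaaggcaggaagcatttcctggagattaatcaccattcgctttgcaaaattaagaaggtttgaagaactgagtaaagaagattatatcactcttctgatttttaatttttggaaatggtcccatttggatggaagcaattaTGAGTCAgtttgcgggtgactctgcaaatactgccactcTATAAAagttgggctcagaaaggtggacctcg
Timp1: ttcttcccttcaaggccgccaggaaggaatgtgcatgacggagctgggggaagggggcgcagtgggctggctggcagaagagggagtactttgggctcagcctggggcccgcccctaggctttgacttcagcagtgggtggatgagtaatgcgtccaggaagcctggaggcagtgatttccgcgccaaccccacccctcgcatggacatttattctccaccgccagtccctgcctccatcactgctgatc
The Mmp3 window holds the AP-1 match TGAGTCA from 71 to 65 bases before the start and TATAAA from 32 to 27 bases before it. The Timp1 window holds neither exact set of letters. Only exact matches were marked, and both windows hold tgagtaa, which differs from TGANTCA by a single base. Of 33469 promoter windows of that length, 6.34% held TGANTCA and 12.9% held TATAAA. Of the 96 genes chosen by rule, 65 were in the promoter table. A match is a description of the letters and does not show that a factor binds there.

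The main comparison was of the CIA with the control library within the Clic5-negative cells. Of 9243 genes that reached 100 UMIs in the 2 sums combined, 148 (1.6%) passed the size rule, 49 (0.53%) higher and 99 (1.07%) lower in the CIA library. Col2a1 and Fam180a, which the rule bounds, are 2 of the lower genes. The median log2 ratio over all tested genes was 0.04. In 9 of the 148 genes, more than 30% of the UMIs in the library with the higher level came from 1 cell. With that cell left out of each library for each gene, 61 genes were higher and 93 lower.

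**Figure D2:**
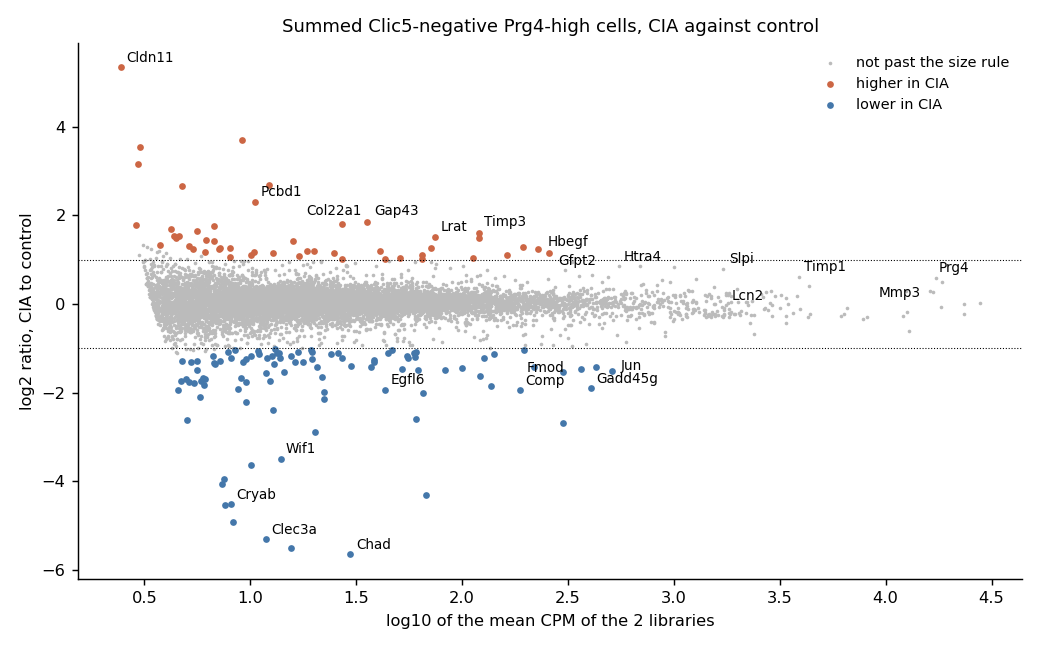
Each point is a gene summed over Clic5-negative Prg4-high cells, with the log10 of its mean CPM over the 2 libraries (horizontal axis) and the log2 ratio of CIA to control (vertical axis); dotted lines mark 2-fold. Orange and blue points are the 49 higher and 99 lower genes past the size rule; the abundant markers Prg4, Mmp3 and Timp1 lie above 0 but inside the lines.

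The 12 highest ratios among genes seen in at least 20% of the CIA cells are given first. Col22a1, a collagen of tissue junctions, was at 12.2 (control) and 42.3 CPM (CIA) (3.47-fold, 2.83 to 4.30). Timp3, a matrix-bound metalloproteinase inhibitor, was at 59.3 and 180 CPM (3.04-fold, 2.76 to 3.34). Lrat, which esterifies retinol for storage, was at 38.5 and 110 CPM (2.87-fold, 2.55 to 3.23). In endothelial cells Col22a1 was at 0.665 and 1.86 CPM and Timp3 at 50.8 and 45.5 CPM. They held more Lrat than the Clic5-negative cells, 143 and 156 CPM.

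The CIA-to-control ratio of Hbegf was 2.36 (2.21 to 2.51), while in the cells outside both Prg4-high groups it went from 88.0 to 46.0 CPM. Gfpt2, an entry enzyme of the hexosamine pathway that supplies hyaluronan precursors, was at 160 and 357 CPM (2.24-fold, 2.11 to 2.37), with 9.69 and 11.03 CPM in endothelial cells. Arl4a, an ARF-like small GTPase, was at 112 and 276 CPM (2.46-fold, 2.29 to 2.64), and at 238 and 196 CPM in endothelial cells. Calcrl, the receptor chain shared by adrenomedullin and CGRP and a known endothelial gene, was at 41.7 and 100 CPM (2.41-fold, 2.15 to 2.70), against 329 and 338 CPM in endothelial cells. Mmd (2.29-fold), Raver2 (2.23-fold) and RGD1559482 (2.31-fold) completed this set with 2 further genes. RGD1559482 was at 12.04 and 27.8 CPM, below its 18.4 and 35.4 CPM in endothelial cells, and is not read as expression.

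These 2 genes, Spp1 (osteopontin) and Mmp9 (gelatinase B), were also higher in the rest of the library. Spp1 was at 63.1 and 178 CPM in Clic5-negative cells (2.82-fold, 2.58 to 3.09), 74.8 and 181 CPM in endothelial cells, and 1102 and 4180 CPM in all other cells. Mmp9 was at 8.62 and 23.1 CPM (2.68-fold, 2.09 to 3.48) and at 14.1 and 57.3 CPM in endothelial cells. Both were at or below the endothelial level and are not read as expression by these cells. Of the 49 higher genes, 15 (30.6%) were also at least 2-fold higher in all other cells, against 0.606% of all 9243 tested genes. In the CIA library 12 (24.5%) were at a higher level in those cells than in the Clic5-negative ones, against 50.5% of all tested genes.

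The higher genes were also set beside the Clic5-positive cells, as a description. In the CIA library, 43 of the 49 (87.8%) were at a higher level in Clic5-positive than in Clic5-negative cells, against 52.8% of all tested genes. In the control library 15 of the 49 (30.6%) were past the size rule on the Clic5-positive side, against 5.81%. Of the 12 top genes, 8 (66.7%) were also at least 2-fold higher in the CIA Clic5-positive cells than in the control ones, against 5.76%. Lrat went from 7.99 to 381 CPM in the Clic5-positive cells, and Timp3 from 223 to 778 CPM.

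The 12 lowest ratios by the same rule followed. Chad (chondroadherin), a cartilage protein, was at 58.2 (control) and 1.16 CPM (CIA) (50.1-fold lower, 33.3 to 78.9). Clec3a, a cartilage lectin, was at 23.0 and 0.581 CPM (39.6-fold lower, 22.2 to 78.0). Endothelial cells had 119 and 0.311 CPM of Chad and 66.2 and 1.09 CPM of Clec3a, so neither control level in the Clic5-negative cells is read as expression. Comp (cartilage oligomeric matrix protein) was at 299 and 77.5 CPM (3.86-fold lower, 3.62 to 4.11), above the 120 and 13.8 CPM of endothelial cells in both libraries. Egfl6, a secreted matrix protein, was at 68.6 and 18.0 CPM (3.82-fold lower, 3.34 to 4.36), against 14.1 and 4.19 CPM in endothelial cells.

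Gadd45g, a growth-arrest gene, was at 638 and 172 CPM (3.72-fold lower, 3.56 to 3.88), and Atf3, a stress-induced transcription factor, at 214 and 59.4 CPM (3.60-fold lower, 3.34 to 3.87). The structural RNA models RF00001_262, RF00100_236 and RF00100_66, were 6.06-fold, 3.99-fold and 3.12-fold lower, and LOC108348108 was 6.43-fold lower. All 4 were at a higher level in endothelial cells than here in both libraries, as was Gadd45g, at 1158 and 222 CPM, and Atf3, at 546 and 87.8 CPM. Hba-a2 (haemoglobin alpha) was at 21.4 and 7.41 CPM, under its endothelial level of 29.2 and 126 CPM. Of the 99 lower genes, 70 (70.7%) were also at or below a ratio of 0.5 in all other cells, against 1.9% of all tested genes. In the control library 83 (83.8%) were at a higher level in the other cells than in the Clic5-negative ones, against 54.7%. The part that free RNA takes in these 99 genes was not tested.

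Immediate-early genes, whose transcription answers a stimulus before new protein is made, had the lowest median of the 25 gene lists. Of 21 measured, 8 were past the size rule as lower in the CIA library, where 1.07% of all tested genes were. None was past it as higher, and 20 had a ratio below 1; their median log2 ratio was -0.82. Jun, a subunit of the AP-1 factor, was at 753 and 262 CPM (2.87-fold lower, 2.77 to 2.98). Its partner Fos was at 624 and 232 CPM (2.69-fold lower, 2.59 to 2.80), and Fosb at 183 and 59.5 CPM (3.07-fold lower, 2.85 to 3.31). Gadd45b (2.79-fold), Ier5 (2.32-fold), Btg2 (2.19-fold) and Zfp36, an RNA-decay factor (2.06-fold), were the others beside Atf3. Fosl1, another AP-1 subunit, was at 13.9 and 15.6 CPM, with a ratio of 1.12 (0.90 to 1.39).

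All 8 were also lower in the CIA library in endothelial, Clic5-positive and all other cells. Jun was at 1584 and 411 CPM in endothelial cells, at 1329 and 386 CPM in Clic5-positive cells and at 1459 and 628 CPM in all other cells. Its level in Clic5-negative cells was the lowest of these 4 groups in both libraries. All 8 lay below their endothelial level in the control library, and all but Gadd45b in the CIA library. Endothelial cells can make these genes themselves, and the part of free RNA was not tested.

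**Figure D3:**
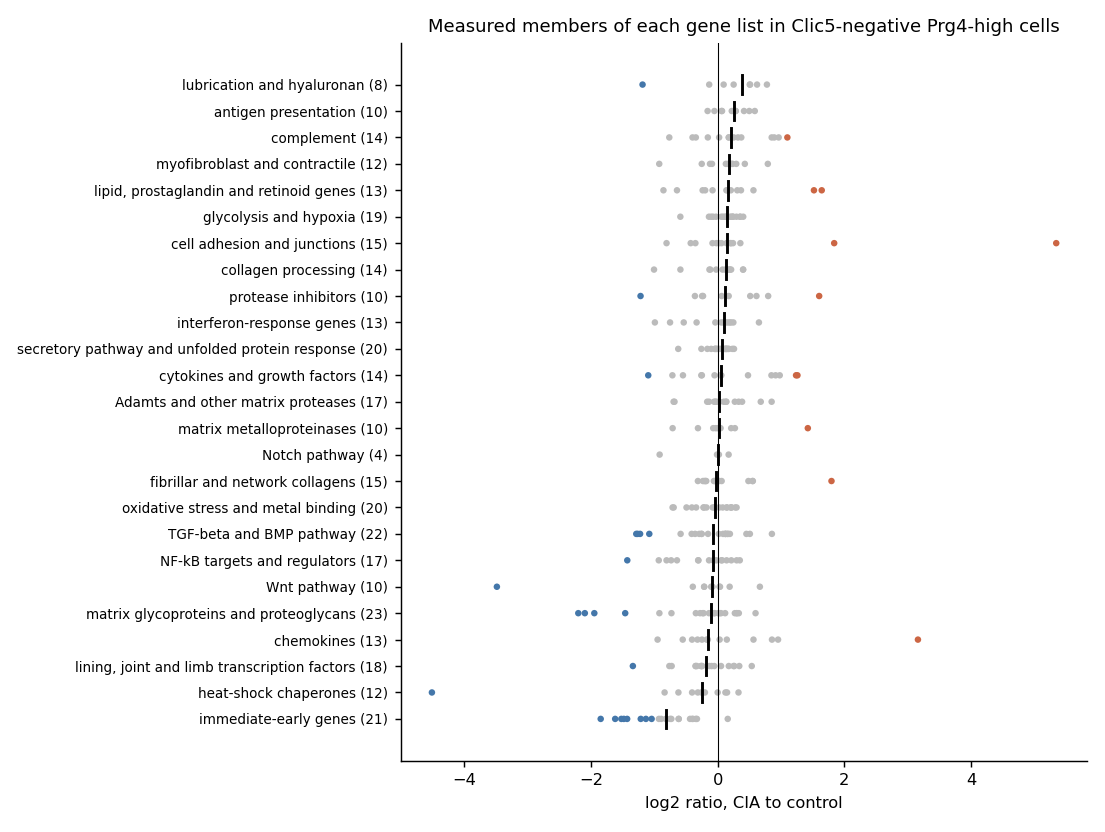
Log2 ratios of CIA to control in Clic5-negative Prg4-high cells (horizontal axis) for the measured members of each of the 25 gene lists, with the number measured in brackets. Points past the size rule are orange (higher) or blue (lower), black bars mark list medians, and the immediate-early list has the lowest median, -0.82, with 20 of 21 members below 0.

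Among matrix metalloproteinases 1 of 10 measured was past the size rule, Mmp9, as described, against 1.6% of all tested genes. Collagenase 3, Mmp13, was at 2951 and 2888 CPM (ratio 0.98, 0.96 to 0.99), and gelatinase A, Mmp2, at 2185 and 2255 CPM (1.03, 1.01 to 1.05). The list median was 0.02. Of 10 protease inhibitors, Timp3 was higher and Serpine2 (protease nexin 1), at 178 and 76.4 CPM, was 2.33-fold lower (2.17 to 2.50), with 18.9% of its control UMIs in 1 cell. None of 17 Adamts, Htra and cathepsin genes was past the rule.

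Of 23 matrix glycoproteins and proteoglycans, 4 were lower, against 1.07% of all tested genes, and 0 higher, with a list median of -0.10. Besides Comp, these were Fmod (fibromodulin), at 533 and 194 CPM (2.75-fold lower, 2.64 to 2.87), and the cartilage intermediate layer genes Cilp (4.28-fold lower, 2.93 to 6.31) and Cilp2 (4.60-fold lower, 3.41 to 6.23). Fmod was at 77.9 and 14.3 CPM in endothelial cells. Cilp was at 9.33 CPM in the control Clic5-negative cells and at 40.6 CPM in control endothelial cells. Fibronectin, Fn1, was at 13768 and 20834 CPM (1.51-fold higher, 1.5 to 1.52), inside the rule. Among 15 collagens only Col22a1 was past it, and among 14 collagen-processing genes none was.

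Of 22 genes of TGF-beta and BMP signalling, 4 were lower, against 1.07% of all tested genes: the BMP-responsive inhibitors Id1 (2.11-fold) and Id2 (2.40-fold) and the ligands Bmp2 (2.34-fold) and Bmp4 (2.44-fold). Id1 was at 82.5 and 39.1 CPM and Bmp4 at 6.73 and 2.76 CPM, with 888 and 663 CPM of Id1 and 56.2 and 32.8 CPM of Bmp4 in endothelial cells. Wif1, a secreted Wnt inhibitor, was the 1 of 10 Wnt genes past the rule, at 25.5 and 2.28 CPM (11.2-fold lower, 8.14 to 15.7), with 22.3 and 0.466 CPM in endothelial cells. Erg, a transcription factor of joint and vessel, was 2.53-fold lower (1.83 to 3.49) at levels far below the 145 and 176 CPM of endothelial cells.

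The cytokine and chemokine lists held 4 genes past the rule, which 1.6% of all tested genes passed. Of 14 cytokine and growth factor genes, Hbegf and the interleukin 1 antagonist Il1rn (4.25 and 10.2 CPM, 2.39-fold higher, 1.67 to 3.51) were higher, and Il1b was 2.14-fold lower (1.82 to 2.50). Il1rn was at 6.17 and 15.4 CPM and Il1b at 50.3 and 23.1 CPM in endothelial cells, above their levels here. Il6 was at 28.0 and 50.4 CPM (1.80-fold, 1.56 to 2.08), and in endothelial cells at 30.8 and 7.14 CPM. Of 13 chemokines only Cxcl9 was past the rule, with 5 and 109 UMIs, of which 1 cell held 65.1% in the CIA library; at 0.590 and 5.28 CPM it lay below the 31.2 and 38.1 CPM of endothelial cells. The neutrophil attractants Cxcl3 (226 and 437 CPM, 1.94-fold, 1.84 to 2.03) and Cxcl6 (494 and 895 CPM, 1.81-fold, 1.75 to 1.87) came closest among the abundant ones.

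Of 17 NF-kB targets and regulators, only Chi3l1 was past the rule, at 318 and 118 CPM (2.69-fold lower, 2.54 to 2.84), with 24.6% of its control UMIs in 1 cell. Lcn2, a siderophore-binding acute-phase protein, was at 1773 and 1749 CPM (ratio 0.99, 0.97 to 1.01). None of 13 interferon-response genes and none of 10 antigen-presentation genes was past the rule. Of 14 complement genes, Cd55 was higher (2.14-fold, 1.91 to 2.41). Of all tested genes, 1.6% were past the rule.

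For the lists that follow, 0.53% of all tested genes were past the rule as higher and 1.07% as lower. Of 13 lipid and retinoid genes, Lrat and Aldh1a3, which makes retinoic acid, were higher, the second at 2.72 and 8.48 CPM (3.12-fold, 2.01 to 5.05). Endothelial cells held more Lrat, as given above. Of 15 adhesion genes, Gap43, a growth-cone protein, was at 15.6 and 55.8 CPM (3.58-fold, 2.99 to 4.32), and the tight-junction gene Cldn11 had 1 and 99 UMIs (ratio 40.6, 7.12 to 1620), 30.3% of the latter in 1 cell. Among 12 chaperones only Cryab was past the rule, with 131 and 14 UMIs, 42.0% of the former in 1 cell. Of 8 hyaluronan genes Abi3bp was 2.28-fold lower (2.05 to 2.52), and the synthase Has1 was at 124 and 191 CPM (1.54-fold, 1.44 to 1.65). Glycolysis, oxidative stress, secretory, Notch and contractile lists had no member past the rule.

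Because the CIA cells held more Prg4, levels were also compared within bands of Prg4, a split chosen after seeing the data. Of the control cells, 45.4% lay from 5000 to 10000 CPM, 30.1% from 10000 to 20000 and 24.5% at 20000 or more; of the CIA cells, 33.7%, 30.2% and 36.2%. Htra4 was at 131 and 137 CPM in the lowest band (1.05-fold, 0.94 to 1.17), 397 and 403 CPM in the middle (1.01-fold, 0.94 to 1.09) and 852 and 1395 CPM in the highest (1.64-fold, 1.56 to 1.72). The counting intervals of the 2 lower bands included 1, and that of the highest did not. They leave out the spread between cells and libraries, so the difference between bands was not tested. The highest band has no upper limit and is not matched for Prg4, which was at 31349 and 38674 CPM in it (1.23-fold), against 1.01-fold in each lower band. The part of this in the ratios of the highest band was not tested.

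Hbegf was at 93.7 and 75.2 CPM in the lowest band (ratio 0.80, 0.70 to 0.92), 126 and 193 CPM in the middle (1.53, 1.35 to 1.74) and 225 and 620 CPM in the highest (2.75, 2.51 to 3.03). Lrat had ratios of 1.23, 1.98 and 3.099 from the lowest to the highest band, Gfpt2 1.04, 1.51 and 2.37, and Timp1 1.21, 1.39 and 1.70. Timp3 had 1.07, 3.85 and 3.27. All of these but Timp3 had their highest ratio in the cells with most Prg4. The ratios of Mmp3 stayed between 1.14 and 1.22, those of Jun between 0.34 and 0.39, and those of Comp between 0.24 and 0.33, a narrower range over the bands.

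**Figure D4:**
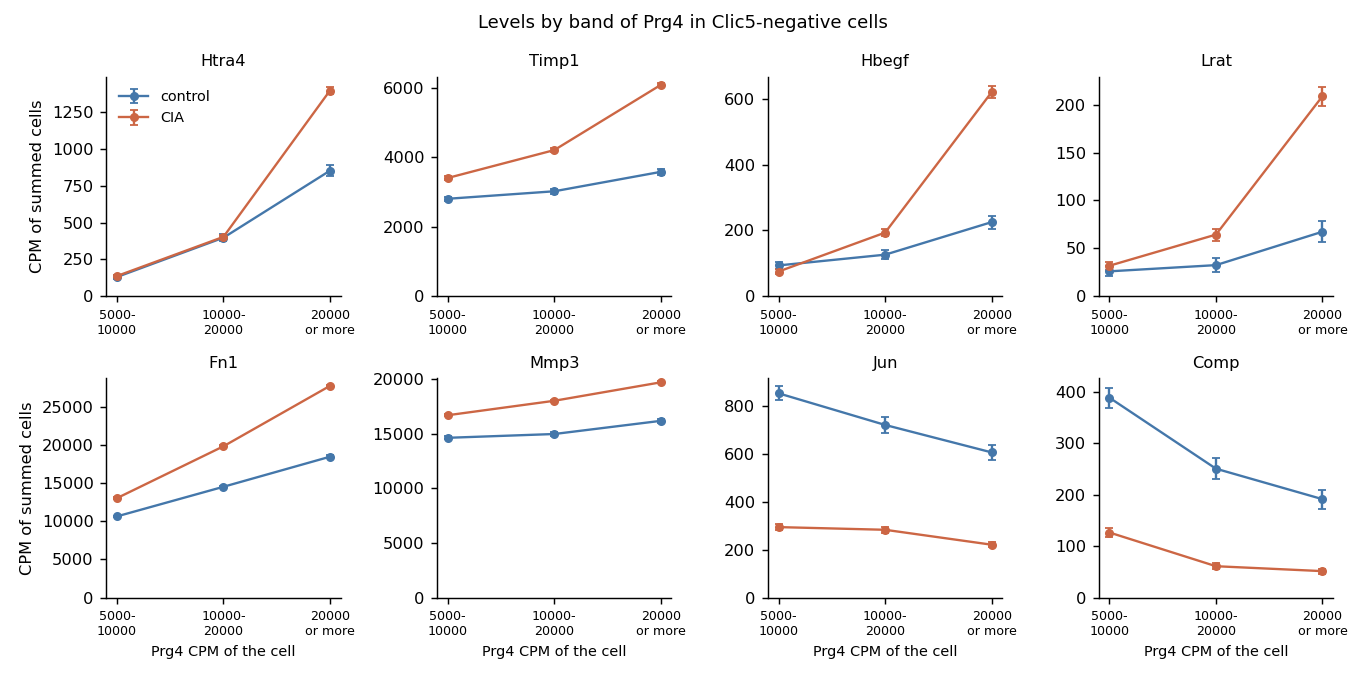
Summed CPM (vertical axes, from 0) of 8 genes in Clic5-negative Prg4-high cells of the control (blue) and CIA (orange) library, by the cell's Prg4 band (horizontal axis, CPM). Bars are 95% counting intervals; Htra4 lines meet in the first 2 bands and part at 20000 CPM or more, whereas Jun and Comp are lower in the CIA library in every band.

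Cells of the rule differed widely among themselves. On cells thinned to 4000 UMIs, the genes outside the rule with the highest variance relative to the mean in both libraries were Cxcl13, Slpi, Lum, Col3a1, Mmp13, Mgp and Col1a1, with Igfbp5 in the control and Mmp3 in the CIA library. Cxcl13, a B-cell attractant, had a median of 0 CPM in both libraries, and reached 1000 CPM in 22 of the 588 control and 128 of the 1560 CIA cells. Its highest cell held 49485 CPM (control) and 99175 CPM (CIA). The antiprotease Slpi had medians of 99.3 and 98.9 CPM, and its highest cell held 48914 CPM (control) and 152298 CPM (CIA). Mmp13 had medians of 402 and 337 CPM, but 61 control and 157 CIA cells were at 10000 CPM or more. Those are 10.4% and 10.1% of the cells.

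Across the thinned cells (588 and 1560, from 1 library each and sharing depth), Spearman's rho with Prg4 was 0.43 and 0.57 for Fn1, 0.37 and 0.53 for Htra4 and -0.27 and -0.38 for Col1a1. With Mmp3, no gene outside the rule reached 0.3 in both libraries; Lcn2 came closest, at 0.43 and 0.298, and Timp1 had 0.32 and 0.27. Prg4 itself had rho of 0.09 and 0.10 with Mmp3. The rule cuts the range of Prg4 at 5000 CPM, so the rho values with Prg4 are a description only. Thinned cells share the same total, so more UMIs of Prg4 leave fewer for other genes. The part of this in the rho values was not tested.

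Against the Clic5-positive cells, the nearest group, the rule itself made the contrast, so the values are a description. In the control library 944 of 6971 measured genes (13.5%) were past the size rule, 399 higher in the Clic5-negative cells (5.72%) and 545 lower (7.82%). In the CIA library 438 of 8761 were (5%), 239 higher (2.73%) and 199 lower (2.27%). The median log2 ratio of all measured genes was -0.18 in the control and -0.03 in the CIA library. Scaling by TMM factors moved the median of all genes by 0.24 on the log2 scale in the control library and gave 548 higher and 358 lower genes there, and 264 and 171 in the CIA library. Leaving the 50 most abundant genes out of the totals gave 483 higher and 428 lower in the control library. In both libraries 174 genes were higher and 123 lower of 6946 measured in both, and 6 were past the rule in opposite directions.

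The 8 genes highest on the Clic5-negative side by the naming rule came first. Ccl20, a chemokine for Ccr6-bearing lymphocytes, was at 205 CPM in Clic5-negative and 5.14 CPM in Clic5-positive control cells (39.9-fold, 21.0 to 87.5), and at 303 and 78.6 CPM in the CIA library (3.86-fold, 3.32 to 4.51). Lcn2 was 21.7-fold and 6.86-fold higher. Frzb, a Wnt antagonist, was 11.8-fold and 37.8-fold higher, the latter against 3 UMIs (interval 12.9 to 183), and Mme (neprilysin) 9.39-fold and 21.3-fold. Tnfsf8 was 16.3-fold and 10.9-fold higher. Keratocan, Kera, had 0 UMIs in control and 1 UMI in CIA Clic5-positive cells, so it was at least 15.5-fold higher in the control library, against a floor of 3 UMIs. Pi15 had 3 and 0 UMIs there, and was at least 8.35-fold higher in the CIA library. Orm1 had 1 and 3 UMIs there, and 77.1% of its control UMIs in Clic5-negative cells came from 1 cell.

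On the Clic5-positive side stood F13a1 (coagulation factor XIII A chain), 54.8-fold lower in Clic5-negative cells of the control (47.1 to 64.2) and 15.7-fold lower of the CIA library (13.3 to 18.4). Fgl2, a membrane prothrombinase, was 53.3-fold and 7.38-fold lower, and Sparcl1, a matrix glycoprotein, 55.2-fold and 6.58-fold lower. The protease Pcsk6 (35.1-fold and 6.97-fold), Aldh1a3 (31.3-fold and 5.98-fold), Pcbd1 (45.6-fold and 3.81-fold), Cd55 (24.03-fold and 6.66-fold) and Aard (34.6-fold and 4.39-fold) followed. In each of these 8 genes the fold was smaller in the CIA library, a difference that was not tested. The Clic5-positive cells of the CIA library had fewer UMIs of the 3 selecting genes, as given above, and the part of this was not tested.

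**Figure D5:**
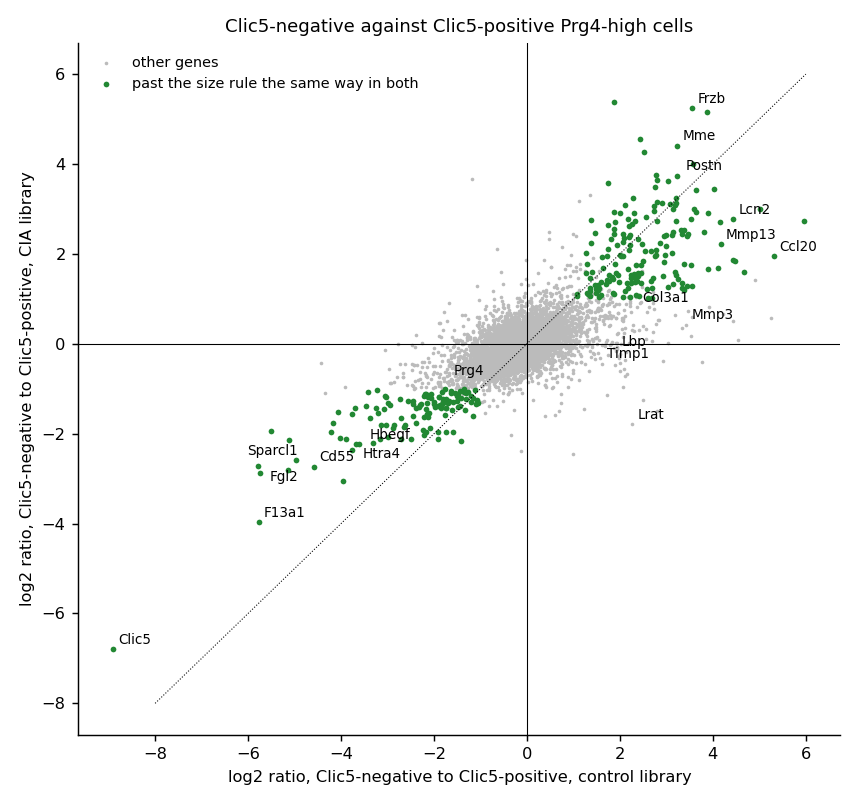
Log2 ratio of Clic5-negative to Clic5-positive Prg4-high cells for each gene in the control (horizontal axis) and the CIA library (vertical axis), with the line of equal ratios dotted. Green points are past the size rule the same way in both libraries; Mmp3 and Timp1 lie far to the right but near 0 on the CIA axis.

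Mmp3 was 10.8-fold higher in Clic5-negative than in Clic5-positive control cells (10.3 to 11.2) and 1.35-fold higher in the CIA library (1.33 to 1.36). Timp1 was 3.05-fold higher in the control library (2.90 to 3.20) and 1.36-fold lower in the CIA library (1.33 to 1.38). The Clic5-positive cells held 1404 and 13560 CPM of Mmp3 and 1006 and 6370 CPM of Timp1. Between the libraries the Clic5-positive level of Mmp3 differed 9.66-fold and the Clic5-negative level 1.21-fold. Of Clic5-positive cells, 113 of 136 (control) and 70 of 133 (CIA) held 5 or more UMIs of the selecting genes. The Clic5-positive groups may thus not hold the same mix of cells. The part of this in their Mmp3 and Timp1 levels was not tested. Htra4 was 13.7-fold and 5.18-fold lower in the Clic5-negative cells.

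Of all measured genes, 5.72% were past the size rule as higher in Clic5-negative control cells and 7.82% as lower. In the CIA library 2.73% and 2.27% were. By list, 8 of 9 measured metalloproteinases were higher in Clic5-negative than Clic5-positive control cells and 2 of 10 in the CIA library. There Mmp13 was 4.63-fold and Mmp16 3.18-fold higher. Of chemokines, 10 of 11 were higher in the control library, and 6 of 13 higher and 2 lower in the CIA library. Ccl7, a monocyte attractant, was 6.84-fold and 13.6-fold higher, and Ccl2 2.61-fold and 6.79-fold. Collagens were higher in 9 of 14 and 4 of 15 cases and lower in 2 and 1, with Col1a1 5.52-fold and 2.55-fold higher. Matrix glycoproteins were higher in 17 of 22 and 10 of 20 and lower in 2 and 2, with Postn (periostin) 9.37-fold and 13.4-fold higher and Lum 8.87-fold and 2.50-fold. Immediate-early genes were lower in 11 of 21 and 7 of 21 cases, and higher in 0.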

How the data were processed

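Single-cell RNA of rat cartilage was analysed from 2 libraries, control and CIA, 1 per group. The authors deposited raw UMI counts per gene and cell, 1 matrix per library (76927821 and 105752977 UMIs in 5456 and 8622 barcodes). Per the submitters' processing notes the build was mRatBN7.2; the sources used here name no aligner, counting tool or strand setting. No kept cell had fewer than 5095 (control) or 4365 (CIA) UMIs.

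Cells over 20% mitochondrial UMIs (45 and 47) and Scrublet doublet calls (62, 1.15%, and 166, 1.94%) were removed, leaving 5349 and 8409; none had under 200 genes. The rule was then applied per cell. UMIs were summed per library over 18147 genes listed for both (1579 and 1103 listed for 1 library were set aside), as CPM. Ratios carry exact conditional binomial, and shares exact Clopper-Pearson, 95% intervals for counting error only. A gene was counted at 2-fold or more with its interval beyond 1.5-fold and at least 100 UMIs over both sums; folds against 0 UMIs use a floor of 3. Endothelial cells had at least 5 UMIs of Cdh5, Egfl7, Kdr, Flt1 and Emcn, Prg4 below 5000 CPM and Lyz2 below 10000 CPM, a choice made after seeing the data. With 1 library per group, no test was run.

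Named genes were the 4 markers, the 12 highest and 12 lowest ratios past the size rule (at least 200 UMIs, a UMI in 20% of cells of the higher library), up to 4 members past the rule per list or else the 2 most abundant, 8 genes each way against Clic5-positive cells, the 10 most abundant, the 8 of highest variance relative to the mean, and up to 5 correlated with Mmp3 at rho 0.3 or more. Others named were chosen after their values were seen. Members and lists were chosen with earlier results of these data known. Of 489 list genes 462 were found. Genes of the rule, mitochondrial, ribosomal-protein and contig-named genes were left out except among markers and lists. Alternatives changed mitochondrial, doublet, Prg4, Clic5 and Lyz2 limits, thinning, scaling, cell weighting, UMI minimum and size rule. Tools were Python 3.11.15, scanpy 1.11.5, numpy 2.4.6, scipy 1.17.1, pandas 2.3.3, matplotlib 3.10.9 and edgeR 4.0.16 (TMM factors) in R 4.3.3. The ratio and size rule were tried on simulated sums with counting error only, which the intervals assume. The simulation held no spread between cells, no free RNA and no choice of cells by the rule.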

Additional observations from a re-analysis of the deposited data

Results flagged for a closer look

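The 3 genes flagged were at least 2-fold higher in the CIA library within the Clic5-negative cells and at least 2-fold lower within the Clic5-positive cells. The difference was not tested, nor was the part of the fewer selecting UMIs in the Clic5-positive cells of the CIA library. Aard had a ratio of 2.49 in Clic5-negative cells (25 and 152 UMIs) and 0.316 in Clic5-positive cells. The ratios of Fgl2 were 2.05 and 0.283, and those of Pcbd1, a dehydratase that is also a transcription cofactor, 4.95 and 0.414. All 3 were more abundant in Clic5-positive cells in both libraries. Cd55, Hbegf and Htra4 were also higher in the first group and lower in the second, by less than 2-fold in the Clic5-positive cells.

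Genes listed for 1 library only were outside the comparisons. The highest of them in the Clic5-negative cells were AABR07051592.2, with 4 UMIs in the control cells, and AC130585.1 and Pou1f1, with 4 UMIs each in the CIA cells. Counts this close to the floor of 3 UMIs, in sums of unequal size, are not read as a difference.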

How the results depend on the processing

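No paired analysis was possible because each group is 1 library. For the same reason no library could be left out. Over the alternatives, 1202 of the recomputed values moved by less than their limits, 442 moved and 6 reversed. Log2 ratios of the named genes moved most often within the Prg4 bands. In the bands from 5000, 10000 and 20000 CPM, 63, 70 and 58 moved, and 28, 23 and 37 stayed within their limits. With Prg4 limits of 2500 and 10000 CPM, 39 and 46 of 96 moved, and 37 did on thinned cells. All 96 stayed within their limits with TMM factors, with doublet calls kept and with no mitochondrial limit. The share of cells in the control and the CIA library was 17.3% and 25.4% with a Prg4 limit of 2500 CPM, 6.0% and 12.3% with 10000 CPM, 10.1% and 17.2% with no UMI of Clic5, Rab3b or Gstt3, 12.7% and 21.1% on thinned cells, and 17.4% in the CIA library with a Lyz2 limit of 2000 CPM. Genes higher and lower in CIA within the Clic5-negative cells numbered 22 and 36 with a minimum of 500 UMIs, 176 and 239 at 1.5-fold, and 12 and 40 at 3-fold, and 256 were lower with no minimum. Against Clic5-positive cells, higher and lower genes in the control library numbered 203 and 188 with a minimum of 500 UMIs, 661 and 1236 at 1.5-fold, and 242 and 226 at 3-fold, and 952 were lower with no minimum and 358 with TMM factors. In the CIA library they numbered 153 and 104, 468 and 578, and 116 and 69, and 336 were lower with no minimum. With no UMI of Clic5, Rab3b or Gstt3 allowed, 203 (control) and 156 (CIA) genes were higher. TMM factors shift every log2 ratio of a comparison by the same amount, 0.24 in the control library, and why they differ from the totals was not tested. The other settings admit more or fewer cells or genes by construction. Log2 ratios reversed for Orm1, to 0.25 with a Prg4 limit of 10000 CPM, to 0.83 with no UMI of the 3 genes and to 0.90 in the band from 10000 CPM, and in the band from 5000 CPM for Arl4a (-0.38), Fgl2 (-0.18) and Hbegf (-0.32); the cause was not tested. Genes under about 100 UMIs are limited by depth.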
